A study of Mus musculus with 10 samples.

Results

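Chromatin regulator genes encode the enzymes, remodelling motors and reader proteins that set how DNA is packed on histones. In this series their RNA synthesis, processing and degradation rates were compared between wild-type and Fmr1-KO mouse neurons. Members were chosen by gene symbol alone, as the genes of the rate table whose symbols begin with Kdm, Kmt, Setd, Hdac, Sirt, Smarc, Chd, Brd, Ehmt, Arid, Ing, Phf or Kat followed, where the family is numbered, by a digit, without Kdm5c, Kdm5d and Kdm6a. This gave 86 of the 8590 genes in the table. Not every name that fits is a histone regulator. Phf5a is a subunit of the SF3b splicing factor, Setd3 is an actin histidine methyltransferase, Sirt3 and Sirt5 are mitochondrial deacylases, and Chd3os, 1 of the 86, matched no gene of the GENCODE M21 annotation, in which 85 members were found by symbol.

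Both genotypes were cortical neurons from FVB.129P2-Pde6b+ Tyrc-ch/AntJ mice, taken at embryonic day 18 and grown for 14 days in vitro, and the groups were wild type and Fmr1-KO, a knockout of the gene of the RNA-binding protein FMRP. Newly made RNA took up 5-EU (5-ethynyluridine), a clickable uridine analogue, given at 200 µM for 20 or 60 min. Of the 10 samples, 4 labelled libraries carry rates, 1 per genotype and labelling time, so the 2 times stood as the 2 replicates of a genotype. The labels do not say whether the libraries came from separate cultures or animals, so p-values measure only the spread between these libraries. The rates come from INSPEcT, a program that infers them from new and total RNA over introns and exons. Their time unit is not stated, and they are printed in the deposited units.

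Lysine acetyltransferases (Kat) and methyltransferases (Kmt, Setd, Ehmt) add marks to histones, and deacetylases (Hdac, Sirt) and demethylases (Kdm) remove them. Bromodomain, ING and PHD-finger proteins read such marks, while CHD proteins and SWI/SNF complexes use ATP to move or evict nucleosomes. Many Smarc genes encode SWI/SNF subunits, but Smarca5 is an ISWI motor and Smarcal1 an annealing helicase. Mutations in many of these genes, among them CHD2, CHD8, EHMT1, KMT2D and SETD2, cause human neurodevelopmental disorders. On GRCm38 the mouse gene Setd2 spans chr9:110532597-110618633 on the plus strand, with 21 exons in the transcript used. SETD2 places trimethylation on lysine 36 of histone H3 along transcribed genes.

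The transcripts of members differ widely in base composition, and members with a lower GC content had higher wild-type degradation rates, as described further on. To show that contrast, a stretch of 90 coding bases nearest the middle of the open reading frame and lying within 1 exon is given for each of 4 members, read from GENCODE M21 transcripts on GRCm38. Capitals mark G or C at the third base of a codon, the base that can most often change without changing the amino acid. Setd2 (exon 3 of 21, codons 1254 to 1283, chr9:110550878-110550967, plus strand) and Ehmt1 (exon 12 of 27, codons 634 to 663, chr2:24839559-24839648, minus strand) are both methyltransferases. Sirt1 (exon 10 of 14, codons 326 to 355, chr10:63326040-63326129, minus strand) and Sirt3 (exon 5 of 8, codons 140 to 169, chr7:140869525-140869614, minus strand) are both sirtuins.
Setd2: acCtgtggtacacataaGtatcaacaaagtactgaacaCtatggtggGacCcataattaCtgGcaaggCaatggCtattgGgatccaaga
Ehmt1: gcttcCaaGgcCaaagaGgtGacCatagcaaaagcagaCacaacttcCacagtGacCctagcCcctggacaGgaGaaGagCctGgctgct
Sirt1: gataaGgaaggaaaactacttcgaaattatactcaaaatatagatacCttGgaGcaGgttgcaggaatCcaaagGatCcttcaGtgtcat
Sirt3: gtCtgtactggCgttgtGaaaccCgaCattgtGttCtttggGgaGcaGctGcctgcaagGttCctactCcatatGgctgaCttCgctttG
Of the 30 codons in each stretch, 10 end in G or C in Setd2, 16 in Ehmt1, 9 in Sirt1 and 18 in Sirt3. Over the whole coding sequence the share of codons ending in G or C was 37.3% in Setd2, 57.6% in Ehmt1, 42.9% in Sirt1 and 60.8% in Sirt3.

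The targeted gene itself had rates in all 4 libraries. Fmr1 had wild-type degradation rates of 0.0774 at 20 min and 0.0672 at 60 min, against 2.58 and 2.66 for the knockout. Synthesis rates of Fmr1 were 0.810 and 0.692 against 2.06 and 1.56, higher in the libraries labelled Fmr1-KO at both times. As an RNA level (synthesis over degradation, for the knockout computed as described further on), Fmr1 stood at 10.5 and 10.3 in wild-type neurons and at 3.50 and 3.28 in the knockout, lower at both times and not 0. Markers of other cell types were looked up as a check on the culture. None of 8 microglial and 0 of 6 vascular markers were rows of the table, against 6 of 16 neuronal, 4 of 9 astrocyte and 6 of 9 oligodendrocyte-lineage markers. Degradation rates of the astrocyte marker Sox9 were listed only in the knockout, and those of Aqp4 (astrocytes), Pdgfra, Cspg4 and Sox10 (oligodendrocyte lineage) and Gad2 (inhibitory neurons) only in wild type. Presence in a table of rates is no measure of cell number, and the part of any such cells in the results was not tested. The files hold rates and no read counts, so the depth is unknown.

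Rates were missing for part of the members, mostly in the knockout. Degradation rates were listed for 82 members in each wild-type library, and knockout libraries listed 62 at 20 min and 60 at 60 min. All 4 rates were listed for 55 members. Both wild-type rates and neither knockout rate were listed for 17 of 82 members (20.7%), beside 19.5% of all genes with both wild-type rates. In alphabetical order these began with Arid4b, Brd7, Brd8, Hdac1, Hdac3 and Hdac9. The class I deacetylases Hdac1 and Hdac3 were both among them, while Hdac2, the close relative of Hdac1, had 1 knockout rate, 0.0855 at 20 min, against 0.0847 and 0.105 in wild type. Phf13 showed the reverse, with knockout rates of 0.526 and 1.49 and none in wild type. Chd1l, Chd3os and Hdac6 had no rate in any library. Members without all 4 rates could not enter the comparisons, so each count below is over the members tested and not over all 86.

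In wild type, the RNAs of Sirt1, Chd2 and Ing2 turned over fastest among the 82 members with both rates, ranked by the mean of the log2 rates. The degradation rate of Sirt1, a nuclear NAD-dependent deacetylase, was 0.496 in the 20 min library and 0.836 in the 60 min one (mean 0.666 ± 0.240 SD, n = 2). That of the remodeller Chd2 was 0.386 and 0.661, and that of Ing2, which reads trimethylated lysine 4 of histone H3, was 0.419 and 0.426. The values of Chd2 overlapped those of both others, so its place in the order does not exceed the spread between labelling times, while both values of Ing2 lay below both of Sirt1. At the other end stood Smarcd3 (0.0297 and 0.0122), a SWI/SNF subunit of neurons and heart, Sirt2 (0.0682 and 0.00658), a mainly cytoplasmic tubulin deacetylase, and Sirt3 (0.0279 and 0.0219). The place of Sirt2 rests on its 60 min library, since its arithmetic mean, 0.0374, is above that of Hdac5, 0.0353. The other sirtuins stood between, with Sirt6 at rank 44, Sirt5 at 57 and Sirt7 at 63, and the values of Sirt1 and Sirt3 were far apart. Setd2 ranked 23 of 82, with 0.139 and 0.230. The median over members was 0.109 at 20 min and 0.114 at 60 min, beside 0.111 at both times over all genes.

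In the knockout, 7 of the 55 members tested had a higher degradation rate and 0 had a lower one, at an adjusted p under 0.05 in limma with Benjamini-Hochberg adjustment over 5716 genes. That is 12.7% of the members, beside 20.5% of all genes called higher and 2.57% called lower, so the share of members called higher was below the background. At an unadjusted p under 0.05 there were 19 members, 34.5%, beside 43.1% of all genes. The median log2 change of the members was 0.52 (0.64 at 20 min and 0.30 at 60 min), beside 0.65 for all genes tested, and 33 of 55 were above 0, which is 60.0% beside 68.1%. With labelling time as a replicate block, 16 members were called higher (29.1%, beside 38.2% of all genes) and 5 lower (9.09%, beside 9.76%).

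**Figure D1:**
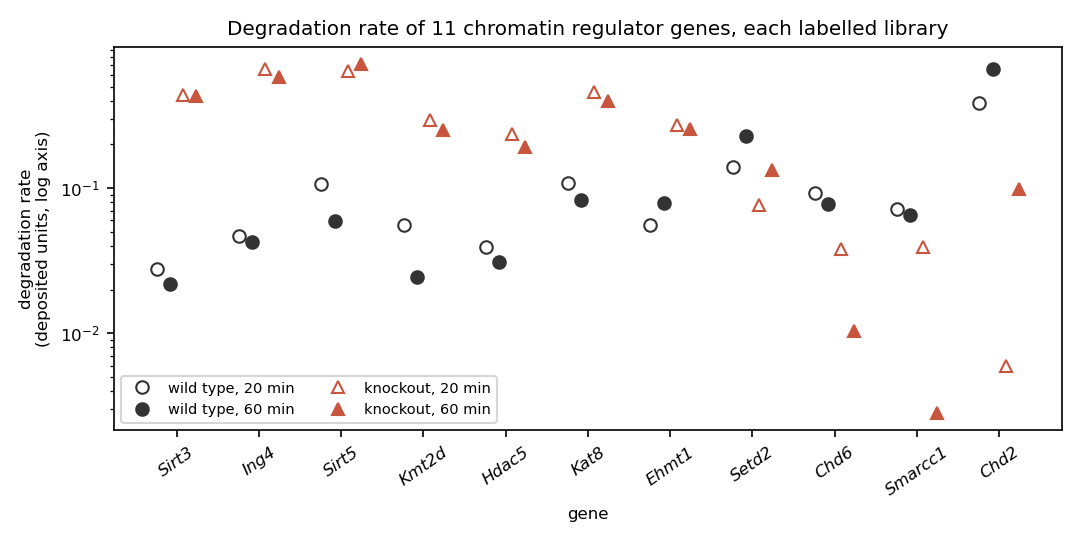
Degradation rate (deposited units, log axis) of 11 members in each of the 4 labelled libraries, 1 point per library; circles are wild type, triangles the knockout, open symbols 20 min and filled symbols 60 min. From Sirt3 to Ehmt1 both knockout values lie above both wild-type values, while for Chd6, Smarcc1 and Chd2 both lie below, with a wide gap between the knockout times of Smarcc1 and Chd2.

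Among the genes grouped as erasers by name, the deposited degradation rates of 3 passed, all upward. Tested were 3 sirtuins, 3 other deacetylases and 9 demethylases, so the share was near the 20.5% of all genes called higher. The 3 were Sirt3 and Sirt5, which are mitochondrial deacylases, and the class IIa deacetylase Hdac5. Sirt3, the main mitochondrial protein deacetylase, had wild-type degradation rates of 0.0279 and 0.0219 and knockout rates of 0.440 and 0.433. The groups did not overlap, and the log2 change of 4.14 (SE 0.333, adjusted p = 0.0235) was the largest rise of any member. Sirt5, which removes succinyl and malonyl groups, had 0.107 and 0.0592 in wild type against 0.643 and 0.712, for a log2 change of 3.09 (SE 0.428, adjusted p = 0.0235). Hdac5, which shuttles out of the nucleus with neuronal activity, had 0.0395 and 0.0311 against 0.237 and 0.192, for a log2 change of 2.61 (SE 0.348, adjusted p = 0.0235). The other sirtuin tested, Sirt1, had knockout rates of 0.562 and 0.956, at a log2 change of 0.19 (SE 0.479), within the spread between labelling times. The other deacetylases tested, Hdac4 at 0.81 (adjusted p = 0.354) and Hdac11 at -0.77 (adjusted p = 0.439), did not pass. In Sirt5 and Hdac5, as in Sirt3, both knockout values lay above both wild-type values. Centring each library on its median ended the calls of Sirt5 (adjusted p = 0.0566) and Hdac5 (adjusted p = 0.0583), and without the wild-type 60 min library none of the 3 passed (adjusted p = 0.0642 for both sirtuins and 0.0644 for Hdac5). Sirt5 and Hdac5 did not pass when 1 knockout library was left out. Sirt3 stayed under the threshold, but those fits hold 1 knockout library and take their spread from the wild-type pair. The result for Sirt3 is therefore not read as a call. The deposited knockout rate also carries the difference in RNA level between genotypes, as described further on, and with that taken out the log2 changes were 1.02 for Sirt3, 0.12 for Sirt5 and 0.48 for Hdac5. Of the 9 demethylases tested 0 passed in either direction (20.5% of all genes were called higher and 2.57% lower), and their median log2 change was -0.17, beside 0.65 for all genes. With labelling time as a block (38.2% and 9.76% of all genes) Kdm2b passed upward, at 1.29 (adjusted p = 0.0342), and Kdm3b downward, at -1.86 (adjusted p = 0.0336). The Sirt3 locus overlaps Ric8a and Psmd13 on the opposite strand, and whether counting used strand is not given in the sources used here.

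Among the writers, the deposited rates of 3 genes passed, all upward, out of 10 methyltransferases and 4 acetyltransferases tested, a share near the 20.5% of all genes called higher. Kmt2d, which methylates lysine 4 of histone H3 at enhancers, had 0.0557 and 0.0243 in wild-type cells against 0.295 and 0.253 in the knockout, for a log2 change of 2.89 (SE 0.516, adjusted p = 0.0296). Ehmt1, which methylates lysine 9 of histone H3, had 0.0555 and 0.0789 against 0.271 and 0.255, for a log2 change of 1.99 (SE 0.357, adjusted p = 0.0297). Its partner Ehmt2 had 0.0675 and 0.0213 against 0.0931 and 0.0546, for a log2 change of 0.91 (SE 0.696, adjusted p = 0.365), so its groups did overlap. Kat8, which acetylates lysine 16 of histone H4, had 0.108 and 0.0834 against 0.460 and 0.397, for a log2 change of 2.17 (SE 0.344, adjusted p = 0.0262), and its locus overlaps Prss8 on the opposite strand. In Kmt2d, Ehmt1 and Kat8 the genotypes did not overlap, and each call was lost with centring (adjusted p = 0.0802, 0.09997 and 0.0823) and without the wild-type 60 min library (0.0644, 0.0644 and 0.0674). Without the knockout 20 min library the adjusted p was 0.285, 0.533 and 0.501, without the 60 min one 0.207, 0.459 and 0.390, and Ehmt1 was also lost without the wild-type 20 min library (0.0577). With the level difference taken out none passed, and the changes were 0.08 for Kmt2d, 0.42 for Ehmt1 and 0.71 for Kat8. The other acetyltransferases tested did not pass, with log2 changes of -0.48 for Kat7, -0.01 for Kat6a and -0.01 for Kat5. The 10 methyltransferases had a median log2 change of 0.78, with 8 above 0. Among them Setd7, which methylates lysine 4 of histone H3, had 0.103 and 0.178 against 0.331 and 0.401, at 1.43 (adjusted p = 0.0746; with the block, 0.0269).

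Setd2 was below wild type where most methyltransferases were above it, without passing the test. Wild-type cells gave 0.139 and 0.230 and knockout cells 0.0769 and 0.133, lower at both times, and the genotypes were kept apart only by the gap between 0.133 and 0.139. The log2 change was -0.82 (SE 0.479, adjusted p = 0.259), and with labelling time as a block the adjusted p was 0.0703. With the block and each library centred on its median the change was -1.68 and the adjusted p 0.0308, which is past the threshold. That fit calls 22.4% of all genes lower, and centring takes 0.86 off every knockout change, so it is no check of the fall. With the level difference taken out the change of Setd2 was -0.05 and the median of the methyltransferases -0.01, so the contrast was no longer seen. Setd3 was the only other methyltransferase-named gene below 0. It had 0.0727 and 0.0630 against 0.0671 and 0.0127, so the change was -0.11 at 20 min and -2.31 at 60 min (mean -1.21, adjusted p = 0.342), and the authors' deposited table gives -0.18.

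The lowest degradation rate changes among the 55 members tested were those of remodellers. In the authors' deposited table, which also covers members without all 4 rates, Arid4a at -2.82 (adjusted p = 0.0291) and Brd9 at -2.49 (adjusted p = 0.0669) lie below Chd2. Chd2 had 0.386 and 0.661 in wild-type cells against 0.00598 and 0.0986 in the knockout, for a log2 change of -4.38 (SE 1.43, adjusted p = 0.0902; with the block, 0.0238). The knockout times differ widely, and the authors' deposited table gives a log2 change of -2.06 for Chd2. Without the knockout 60 min library the change was -6.40 (adjusted p = 8.97e-05), and without the 20 min one it was -2.36 (adjusted p = 0.410). Each of those fits holds 1 knockout library and takes its spread from the wild-type pair, so the low p is not read as a call. Chd6 had 0.0932 and 0.0783 against 0.0380 and 0.0103, for a log2 change of -2.11 (SE 0.714, adjusted p = 0.0968; with the block, 0.0324). For Chd6 the authors' deposited table gives -1.32, and adding the 10th percentile of all rates as a pseudocount gave -0.97. Chd7, mutated in CHARGE syndrome, had 0.208 and 0.282 against 0.0386 and 0.1003, at -1.96 (SE 0.581, adjusted p = 0.0751; with the block, 0.0210). Chd8, the exception, had 0.0956 and 0.0651 against 0.159 and 0.138, at 0.91 (SE 0.370, adjusted p = 0.138). The 5 CHD genes tested thus had a median of -1.96, with 4 below 0. With the level difference taken out that median was -0.16, with Chd2 at -0.68 and Chd6 turned to 0.13, and none passed. None of the 5 passed without the block, and Chd2, Chd6 and Chd7 passed downward with it, where 9.76% of all genes are called lower. Chd2 overlaps Gm44686 on the opposite strand and 1810026B05Rik on its own.

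The SWI/SNF group, which here holds all Smarc genes, also related ones outside SWI/SNF such as Smarca5 and Smarcal1, was mixed. Smarcc1, a core BAF subunit, had 0.0717 and 0.0657 in wild-type cells against 0.0394 and 0.00285 in the knockout, for a log2 change of -2.70 (SE 1.32, adjusted p = 0.194; with the block, 0.0818), and the change was -0.86 at 20 min and -4.53 at 60 min. For Smarcc1 the authors' deposited table gives -0.92 and the fit with the pseudocount -0.86, and without the knockout 20 min library it was -4.59 (adjusted p = 0.0180), again with 1 knockout library and the spread of the wild-type pair alone, so this too is not read as a call. Without the 60 min one it was -0.80. Smarcd1, another BAF subunit, had 0.0596 and 0.0773 against 0.165 and 0.173, at 1.32 (adjusted p = 0.0567; with the block, 0.0278). Smarcal1, an annealing helicase, had 0.0564 and 0.0403 against 0.145 and 0.106, at 1.38 (adjusted p = 0.0656; with the block, 0.0236). The Smarcd1 paralogue Smarcd3 was above wild type at 20 min, by 0.67, and below it at 60 min, by -1.84, for a mean of -0.59, where the authors' deposited table gives 1.19. The Smarcc1 locus overlaps Dhx30 on the opposite strand. Of the 6 tested, 3 were above and 3 below 0, with a median of -0.01, and this split counts Smarcd3 as below 0. With the level difference taken out the change of Smarcc1 was -0.002 and the median of the group 0.25.

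Among the readers, Ing4 passed. Ing4, a subunit of the HBO1 acetyltransferase complex that reads trimethylated lysine 4, had 0.0467 and 0.0428 in wild-type cells against 0.667 and 0.585 in the knockout, for a log2 change of 3.80 (SE 0.320, adjusted p = 0.0235). The call was lost without the wild-type 60 min library (adjusted p = 0.0642) and without either knockout library (0.0999 without 20 min and 0.0743 without 60 min), and with the level difference taken out the change was 0.89 and did not pass. Its locus overlaps 4930557K07Rik on the opposite strand and Gm44597 on the same strand. With the block, Ing1 at 1.17 (adjusted p = 0.0324) and Ing3 at 1.31 (adjusted p = 0.0291) also passed, in a fit that calls 38.2% of all genes higher. Ing2 was at -0.43. The 8 PHD-finger genes tested ranged from -1.12 for Phf3 to 1.92 for Phf1, with 0 called without the block (20.5% of all genes higher and 2.57% lower) and, with it (38.2% and 9.76%), Phf2 and Phf12 higher and Phf3 lower (adjusted p = 0.0293, 0.0321 and 0.0480). Brd3, a BET protein that binds acetylated histones, was at 1.33 (adjusted p = 0.0545; with the block, 0.0259).

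**Figure D2:**
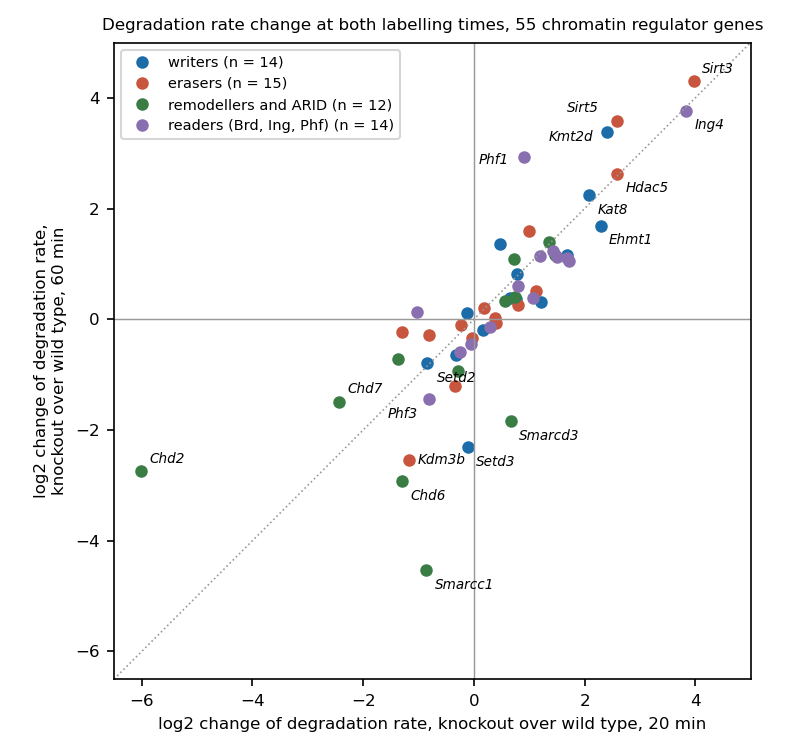
Log2 change of degradation rate, knockout over wild type, at 20 min (x axis) and at 60 min (y axis) for the 55 members with all 4 rates, coloured by role; the dotted line marks equal changes. In 31 members both changes are above 0, in 18 both are below 0 and in 6 they have opposite signs; Chd2, Smarcc1 and Smarcd3 lie far from the line.

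These counts depend on how the libraries are scaled. Setting the median log2 rate of each library to 0 takes 0.86 off every knockout change, which moves the members' median to -0.34 and leaves Sirt3 and Ing4 as the 2 members called (0.56% of all genes are then called higher), both at a limma adjusted p of 0.0497. After quantile normalization Hdac5, Ing4, Kmt2d, Sirt3 and Sirt5 passed upward, beside 6.3% of all genes. With centring and the block together, 6 members were called higher and 12 lower (13.9% and 22.4% of all genes), the latter with Setd2, Chd1, Chd2, Chd6 and Chd7 among them. The authors' deposited table, over 64 members, calls 15 higher and 3 lower, beside 29.2% and 7.09% of its genes. The 7 genes that rose stayed above 0 under quantile normalization. Under centring this was fixed beforehand, since the smallest of the 7 changes, 1.99 for Ehmt1, exceeds the 0.86 taken off. For genes already below 0, such as Setd2 and Chd2, centring can only lower the value and is no check of the direction. The rates recomputed further on can turn a sign. Family medians under centring and under quantile normalization were -2.82 and -2.23 for the CHD genes, 2.23 and 2.27 for the sirtuins, 0.38 and 0.47 for the ING genes and -1.02 and -0.72 for the demethylases. With the recomputed rates these medians were -0.16 for the CHD genes, 0.13 for the sirtuins, 0.45 for the ING genes and -0.09 for the demethylases. The sign depended on the scaling in other families. Against 0.78 as deposited, the methyltransferases were at -0.08 and 0.08. The SWI/SNF group went from -0.01 to -0.86 and 0.25, the PHD-finger genes from 0.39 to -0.46 and -0.37, the deacetylases outside the sirtuins from 0.81 to -0.04 and 0.03, and the 1 ARID gene tested, Arid5b, from 0.45 to -0.41 and -0.39. The bromodomain genes went from 1.03 to 0.17 and 0.24 and stayed above 0. The acetyltransferases went from -0.01 to -0.87 and -0.82, and with the recomputed rates to 0.10. None of the 7 rises passed without the wild-type 60 min library. With 1 library left out, 1 genotype has a single library and takes its spread from the other, so such fits are not read as calls.

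The synthesis and degradation rates of a library are not independent numbers. In wild type the ratio of synthesis to degradation rate, which at steady state stands for the RNA level, was the same at both labelling times to within 0.001 log2 units in 53 of 55 members. In the knockout that ratio agreed within 0.01 in 2 of 55. A different quantity did agree there, namely the knockout synthesis rate plus the wild-type ratio, divided by the knockout degradation rate plus 1, and it was equal at both times within 0.01 in 55 of 55 members and in 96.4% of all genes. Called the implied level here, it means that each deposited knockout degradation rate carries, by arithmetic, the difference in level between the genotypes. The 2 degradation rates of a genotype are therefore not separate estimates of its RNA level, and the test above sees only the spread between labelling times.

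Changes of the implied level were small beside those of the deposited degradation rates. The log2 change of the level ran from -0.66 for Sirt5 to 0.45 for Chd2, with a median of -0.06, beside -0.08 for all genes, and 21 of 55 were above 0 (38.2%, beside 32.3% of all genes). The level of Sirt3 was 10.5 in wild type and 7.55 in the knockout, that of Ing4 was 14.2 and 9.28, and that of Kmt2d was 19.2 and 15.6. The level of Chd2 was 4.18 and 5.70, and that of Setd2 was 14.7 and 15.8. The 7 members with a higher degradation rate all had a lower implied level, a quantity that enters the deposited rate. When the knockout degradation rate was recomputed as synthesis over the implied level, 0 of 55 members and 0 of 5704 genes passed in limma, with or without the block, and 98 of all genes (1.72%) had an unadjusted p under 0.05 (532, 9.33%, with the block). These are the changes given above with the level difference taken out, and their median was 0.05 over the members, beside 0.06 over all genes.

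**Figure D3:**
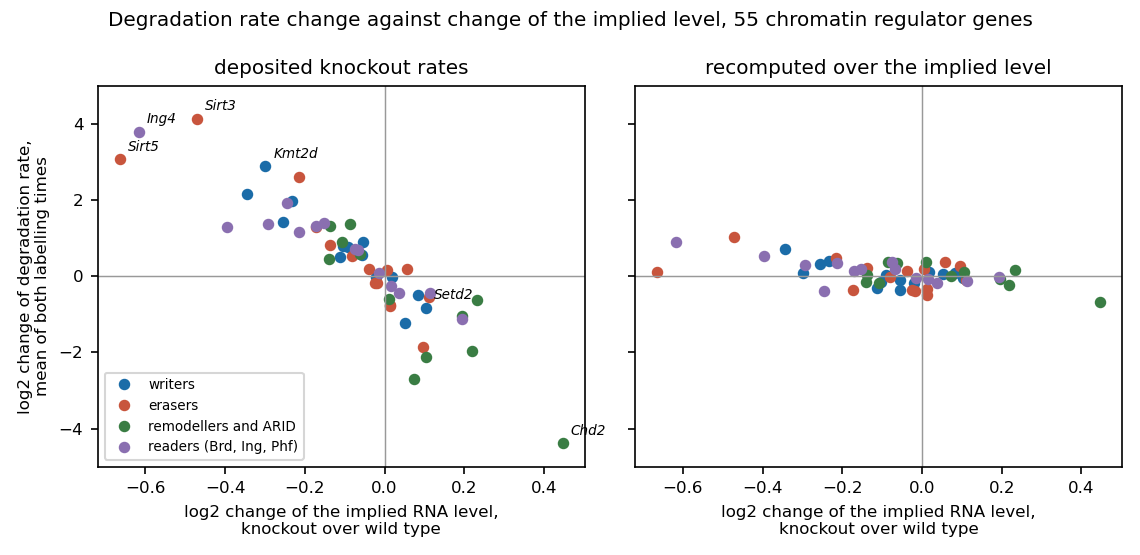
Log2 change of degradation rate, mean of both labelling times, against the log2 change of the implied level for the 55 members, coloured by role; the left panel uses the deposited knockout rates and the right panel those recomputed as synthesis over the implied level. On the left the changes span -4.38 to 4.14 and fall as the level rises; on the right Sirt3, at 1.02, is the highest.

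Base composition and untranslated length went with the wild-type rates. Across the 55 members, Spearman's rho between the GC content of the transcript and the wild-type degradation rate was -0.55 for the 20 min library and -0.66 for the 60 min library, beside -0.20 and -0.33 across 5553 genes. With the share of codons ending in G or C, the quantity shown in the stretches above, rho was weaker, at -0.37 and -0.46, beside -0.08 and -0.18. The untranslated length of the transcript had a rho of 0.31 and 0.58, beside 0.07 and 0.26. Transcript GC content also had a rho of -0.44 with the 60 over 20 min difference of the wild-type synthesis rates, beside -0.29. The fast Sirt1 has a transcript of 43.97% GC and the slow Sirt3 one of 53.8%, and the stretches printed above hold 9 and 18 codons that end in G or C. This pair comes from the ends of the order. Of the sirtuins without all 4 rates, Sirt2 (55.8% GC) was slow too. Sirt6 and Sirt7, both at 58.4% GC, were faster than Sirt3 (wild-type means 0.123 and 0.0725 against 0.0249). With the deposited knockout rates rho was 0.01 at 20 min and -0.20 at 60 min, and with the recomputed ones it was -0.64 and -0.66. The deposited change had a rho of 0.37 with transcript GC content and 0.39 with the share of codons ending in G or C, beside 0.31 and 0.20 across all genes. With the recomputed change rho was -0.09 and -0.005, beside -0.17 and -0.21, so the relation among members was no longer seen. All points share the same 4 libraries and genes are not independent replicates, so these are descriptions without a test. Members were also longer than other genes of the table, with a median coding length of 3069 bases against 1452 and 18 exons against 9, at nearly the same median transcript GC content, 50.0% against 50.5%. Another gene lies on the opposite strand within the bounds of 37 members.

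**Figure D4:**
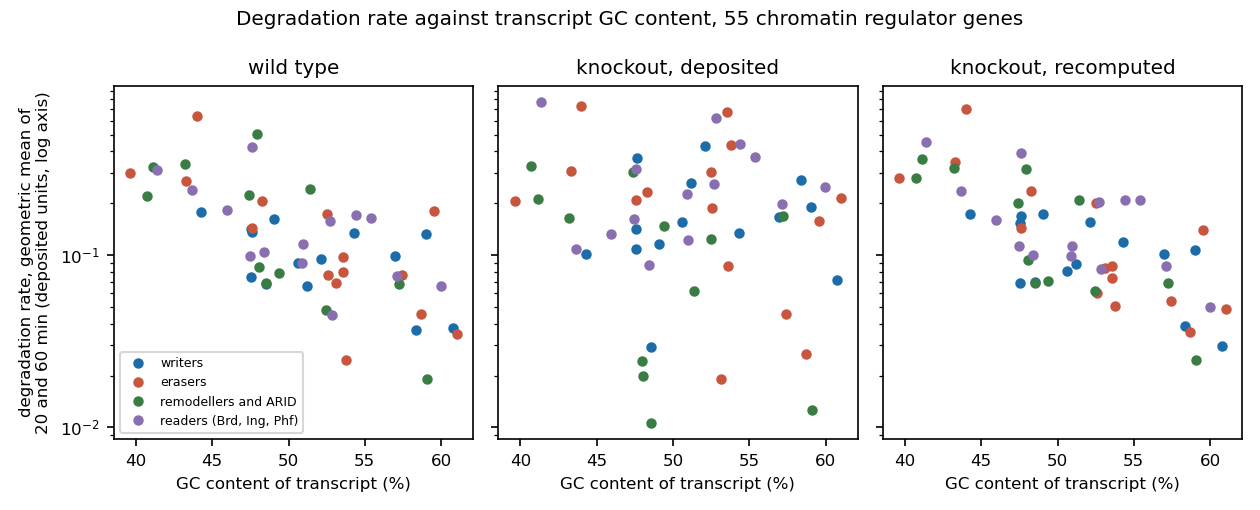
Degradation rate (geometric mean of 20 and 60 min, deposited units, log axis) against transcript GC content for the 55 members, coloured by role, in wild type, in the knockout as deposited and in the knockout as recomputed over the implied level. Rates fall with GC content in the outer panels, while the middle panel (rho of 0.01 at 20 min and -0.20 at 60 min) has low values both near 48% GC (Smarcc1, Chd6, Chd2) and at higher GC content (Kdm3b and Smarcd3).

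Processing, the conversion of intron-containing precursor to mature RNA, had lower rates in the knockout for most members, and members passed the test when labelling time was a block. Of 53 members, 41 had a lower processing rate and 12 a higher one (22.6%, beside 29.9% of all genes), with a median log2 change of -0.37 beside -0.36 for all 5082 genes. Without the block 0 members and 0 of all genes passed in limma, with 3 members and 783 genes (15.4%) at an unadjusted p under 0.05. With it, 7 members were lower and 1 was higher, beside 19.3% and 6.26% of all genes. Centring the libraries moves the members' median to -0.02.

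The widest processing changes among the 53 members tested were those of the acetyltransferases Kat5 and Kat7. Kat5, the catalytic subunit of the TIP60 complex, had wild-type processing rates of 19.0 and 16.6 against 1.93 and 2.005 in the knockout, at a log2 change of -3.18 (block SE 0.237, adjusted p = 0.00789 with the block and 0.101 without). The Kat5 locus overlaps Rnaseh2c on the opposite strand. Its degradation rate, by contrast, changed by -0.01. Kat7, the catalytic subunit of the HBO1 complex, had 32.3 and 57.8 against 9.68 and 12.5, at -1.97 (adjusted p = 0.0121 with the block). Kat8 was the member that rose, from 1.56 and 1.20 to 3.30 and 2.31, at 1.01 (adjusted p = 0.0379 with the block). None of these groups overlapped. The fourth acetyltransferase tested, Kat6a, had 7.83 and 16.1 against 8.57 and 13.3, at -0.07 (adjusted p = 0.955; with the block, 0.837).

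Among the other members, Chd8 had 46.4 and 31.6 in wild type against 17.9 and 13.3, at -1.31 (adjusted p = 0.0210 with the block). Phf21a, a subunit of the LSD1-CoREST complex, had 5.78 and 4.96 against 3.17 and 1.79, at -1.17 (adjusted p = 0.0376 with the block). Smarca5, the ISWI motor, had 13.4 and 38.9 against 6.99 and 19.0, at -0.99 (adjusted p = 0.0393 with the block). Smarca5 differed more between labelling times than between genotypes, so its groups overlapped. Sirt1, with 9.50 and 16.01 against 4.69 and 8.37, was at -0.98 (adjusted p = 0.0401 with the block), and Arid5b, with 15.7 and 25.7 against 8.05 and 13.6, at -0.94 (adjusted p = 0.0434 with the block). Setd2 had 15.5 and 25.6 against 9.44 and 13.2, non-overlapping, at -0.83 (adjusted p = 0.461, and 0.0581 with the block). With centring and the block together, Kat8 upward and Kat5 and Kat7 downward passed (7.14% and 6.4% of all genes). With the recomputed rates and the block it was Chd8, Kat5 and Kat7 downward (11.9% of all genes), and the change of Kat5 was -2.67. The modelled precursor level was synthesis over processing in wild type. For the knockout it was computed like the implied level, with the processing rate in place of the degradation rate. It was higher in 43 of 53 members (81.1%, beside 70.9% of all genes), with a median log2 change of 0.30 beside 0.29 for all genes and a value of 2.48 for Kat5.

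**Figure D5:**
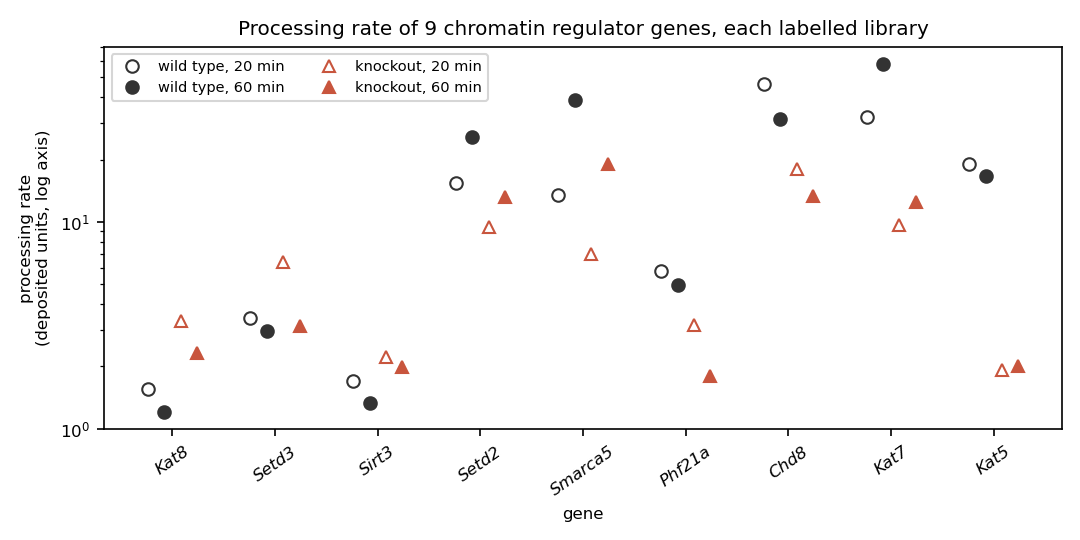
Processing rate (deposited units, log axis) of 9 members in each labelled library, 1 point per library; circles are wild type, triangles the knockout, open symbols 20 min and filled symbols 60 min. Kat5 goes from 19.0 and 16.6 to 1.93 and 2.005, while Smarca5 shows the same fall at each time within a wide gap between times.

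Synthesis rates of members were not called different. In limma 0 of 55 members and 0 of 5794 genes passed, with or without the block, and 0 members and 18 genes (0.311%) had an unadjusted p under 0.05 without it. The median log2 change of the members was 0.05, at 0.16 for 20 min and -0.12 for 60 min. In 27 of 55 members (49.1%) the sign differed between times, beside 43.4% of all genes. Of the members that moved one way at both times, Sirt3 was highest at 0.55 (0.292 and 0.229 against 0.403 and 0.358), followed by Kdm5a at 0.43 and Smarcad1 at 0.39. Phf1 was lowest at -0.64 (0.888 and 0.155 against 0.521 and 0.109), followed by Kdm2b at -0.53 and Kdm4a at -0.42. Setd2 had synthesis rates of 2.05 and 3.39 in wild-type cells against 2.32 and 3.21, for a log2 change of 0.05 (SE 0.464). A standard error of that size leaves room for sizeable changes that these libraries cannot show.

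Members also differed between the labelling times of a genotype. In wild type their degradation rates were 0.34 log2 units higher at 60 than at 20 min at the median, beside 0.00 for all genes, and in the knockout 0.08 higher, beside -0.07. For degradation the median SD between times was 0.49 on the log2 scale for wild type, and 0.35 for the knockout, beside 0.45 and 0.26 for all genes. In wild type the members' synthesis and processing rates gave the same 0.34 and 0.49, so this shift is not particular to degradation. Chd1 had 0.172 and 0.658 in wild type at the 2 times, and Phf1 the reverse, 0.157 and 0.0275.

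Other chromatin regulators, a list of genes outside the naming rule, were read in the same way. Of 111 such genes with a row, 77 were tested for degradation, with 9 higher (11.7%, beside 20.5% of all genes) and 3 lower (3.90%, beside 2.57%), and a median log2 change of 0.50 beside 0.65. The counts changed with the scaling. Centring gave 0 higher and 0 lower (0.56% and 1.05% of all genes), quantile normalization 2 and 5 (6.3% and 4.13%), the block 29 and 8 (38.2% and 9.76%), the block with centring 7 and 20 (13.9% and 22.4%), and the recomputed rates 0 and 0. The authors' deposited table, over 88 of these genes, calls 24 higher and 11 lower (29.2% and 7.09%). Those higher had log2 changes from 1.79 for Jmjd6, a lysyl hydroxylase, to 2.61 for Tbl1x, a subunit of the NCoR corepressor, with Dpf2, L3mbtl2, Msl3, Dot1l, Rbbp5, Kansl2 and Dpf1 between them. Kansl2 at 2.45 (adjusted p = 0.0235) and Msl3 at 1.996 (adjusted p = 0.0289) are subunits of complexes that contain Kat8. Of the other Kansl and Msl genes with a row, Kansl3 was called higher only with the block. Kansl1 and Msl2 were called in neither fit. Those lower were Baz1b at -1.62, Bcl7a at -1.74 and the Polycomb gene Pcgf2 at -3.56 (adjusted p = 0.0282). By role, subunits of COMPASS and acetyltransferase complexes had a median of 1.32 over 15 genes. Of these, 3 were called higher, a share near the 20.5% of all genes. Polycomb genes had a median of -0.12 over 15, with 1 lower. Centring moved these medians to 0.46 and -0.97, and the recomputed rates to 0.03 and 0.07. For processing 0 of 74 passed, and 5 were higher and 7 lower with the block (6.26% and 19.3% of all genes), and for synthesis 0 of 79 did.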

How the data were processed

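The authors deposited 1 table of INSPEcT synthesis, processing and degradation rates, linear values of 0 or above, and 3 tables of knockout against wild type. Their columns are, per the file headers, limma's log2 change and mean log2 rate, p-values with adjusted p-values, and 2 score columns (the moderated statistic and log odds). The submitters' processing notes name cutadapt, Bowtie2, TopHat2, HISAT2 and limma and the builds mm10, dm6 and sacCer3, without roles. Labelled fly and unlabelled yeast RNA were spiked in, per the labels, and how they were used is not given in the sources used here.

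Genes with a rate above 0 in all 4 labelled libraries were compared on log2 rates without a pseudocount in limma 3.58.1 (R 4.3.3; lmFit, eBayes without trend, two-sided, Benjamini-Hochberg over all genes tested, threshold 0.05). Labelling time pairs the libraries, since both genotypes were labelled for 20 and 60 min. The 60 over 20 min difference in wild type and that in the knockout had, across genes, a Spearman's rho of 0.652 for degradation, 0.735 for synthesis and 0.735 for processing. Values with the block are printed beside the members whose call it changes. Where a library was left out, the lone library of its genotype was assumed to vary like the pair of the other. The scripts were tested on simulated data. The implied level and the rates recomputed from it were added after seeing the data.

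Members and lists were chosen with earlier results of these data known. Named genes were Setd2, members that passed and changed the same way at both times (for processing, with the block, up to 5 each way), the 3 largest rises and falls where fewer than 3 passed, the 3 highest and lowest in wild type, and up to 6 without knockout rates. Others were named after their values were seen. Gene features and sequences come from the GENCODE M21 transcript with the longest coding sequence.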

Additional observations from a re-analysis of the deposited data

Results flagged for a closer look

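Family medians over 2 or more members, the 6 members with opposite degradation rate changes, and Setd2 and Kat6a are given here where the knockout change had opposite signs at 20 and 60 min, and none of these differences between times was tested. The differences are 60 min minus 20 min on the log2 scale.

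For degradation, the median of the SWI/SNF group was 0.71 at 20 min and -0.27 at 60 min, a difference of -0.98, and that of the lysine acetyltransferases 0.02 and -0.04, a difference of -0.062. Among single genes the difference was -2.51 for Smarcd3 (0.67 and -1.84), 1.15 for Phf5a (-1.02 and 0.13), -0.45 for Kdm2a (0.39 and -0.06), -0.43 for Phf21a (0.30 and -0.14), -0.35 for Kat6a (0.16 and -0.19) and 0.23 for Kat5 (-0.12 and 0.11).

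For synthesis, the median over all members was 0.16 and -0.12, a difference of -0.28. By family the difference was -0.50 for the methyltransferases (0.15 and -0.35), -0.45 for the SWI/SNF group (0.44 and -0.02), -0.45 for the acetyltransferases (0.38 and -0.07), -0.27 for the ING genes (0.22 and -0.05), -0.27 for the PHD-finger genes (0.07 and -0.19) and -0.25 for the deacetylases outside the sirtuins (0.20 and -0.05). The synthesis rate of Setd2 changed by 0.18 and -0.08, a difference of -0.25.

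For processing, the median of the sirtuins was -1.02 and 0.57, a difference of 1.59, that of the deacetylases outside the sirtuins 0.22 and -0.34, a difference of -0.57, and that of the ING genes 0.38 and -0.07, a difference of -0.45. Kat6a changed by 0.13 and -0.27, a difference of -0.40. In all, 27 of 55 members had opposite signs for synthesis and 11 of 53 for processing.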

How the results depend on the processing

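For degradation, the numbers called over all genes and over members were 1321 and 7. They became 2741 and 21 with the replicate block, 92 and 2 with centring, and 2070 and 18 with both, the members' median being -0.34 under either centring. Quantile normalization gave 596 genes and a members' median of -0.22. Members called were 15 with a pseudocount at the 10th percentile and 11 with a trend in eBayes. At a threshold of 0.01 the counts were 0 and 0. With rates recomputed over the implied level they were 0 and 0, with or without the block, the median was 0.052, and Chd6 turned to 0.13 in both. The authors' deposited table called 2245 genes and 18 members, with a median of 0.19. Leaving out 1 library at a time gave 1 to 1112 genes, 0 to 7 members and medians of 0.093 to 0.63.

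For synthesis, leaving out 1 library gave 3 to 16 genes called, 0 members and medians of -0.17 to 0.15. Signs turned for Kdm5a (-0.00048 to 0.86) and Phf1 (-1.89 to 0.62) and Setd2 (-0.31 to 0.41), without the wild-type 20 min library for all 3 and without the knockout 60 min library for Phf1 (0.49) and Setd2 (-0.19).

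For processing, the block gave 1300 genes and 8 members, and with centring 688 and 3. The members' median was -0.021 with centring, with or without the block, and -0.040 with quantile normalization. Recomputed rates with the block gave 789 genes and 3 members. Leaving out 1 library gave 1 to 95 genes, 0 to 1 members and medians of -0.52 to -0.23, and without the knockout 20 min library Setd3 turned to -0.025 (up to 1.01 otherwise). The cause of these shifts was not tested. The unknown depth and 2 libraries a genotype limit every test.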
